A study of Mus musculus with 2 samples.

Results

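The CpG methylation of 10 pluripotency genes, Pou5f1, Nanog, Dppa2, Dppa3, Dppa4, Dppa5a, Zfp42, Tdgf1, Sall4 and Lin28a, was compared between Dnmt1+/+ and Dnmt1-/- mouse embryonic fibroblasts (MEFs). The genes were taken from a fixed list and make up 10 of 22367 protein-coding genes on the chromosomes measured. Their CpGs were all those lying in the gene or in the 3 kb on either side of it, which gave 411 of the 1790826 CpGs of the series. Methylation was measured by reduced-representation bisulfite sequencing. In it restriction fragments are treated with bisulfite so that methylated cytosines are still read as cytosine, while most unmethylated ones are not. Each value is the percentage of methylated calls at a CpG.

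There was 1 library per genotype, from cultured MEFs. Both lines were homozygous null for trp53, and the cells called Dnmt1-/- were Dnmt1 n/n, that is, carried a hypomorphic Dnmt1 allele on both chromosomes. Dnmt1 is the gene of the methyltransferase that copies CpG methylation onto the new strand after replication. The strain is given in the labels by reference to an earlier study, and the passage, the sex of the embryos and the number of independent lines are not given in the sources used here. With 1 library per genotype, a difference between genotypes cannot be told apart from one between cell lines or cultures. All intervals cover counting error only, and the tests compare the libraries and not the genotypes. The table holds no expression, so the cell type could not be checked by transcripts. The promoters of 8 genes used by fibroblasts were read instead, which is no test of the cell type. Of these, 4 had at least 5 CpGs of the kind used below: Col1a2, a collagen gene, at 22.9% in Dnmt1+/+ (with a CpG at 88.5%) and 7.48% in Dnmt1-/-, and Vim (2.87% and 0.464%), Pdgfra (0.882% and 0.907%) and Fn1 (0.616% and 0.587%), all low in both. Thy1, named after its values were seen, had 4 CpGs, which read 14.5% and 32.3%, and 2 of these were called higher in Dnmt1-/-.

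Pluripotency genes are transcribed in the early embryo, embryonic stem cells or germ cells and are silenced as cells differentiate. Pou5f1 (Oct4) and Nanog encode transcription factors at the centre of the network that keeps stem cells undifferentiated, Zfp42 (Rex1) and Sall4 encode zinc finger proteins, and Tdgf1 (Cripto) encodes a co-receptor for Nodal. The Dppa genes are named for developmental pluripotency, and Lin28a encodes an RNA-binding protein that blocks the maturation of let-7 microRNAs. CpG-poor promoters of such genes commonly become methylated in somatic cells, whereas promoters in CpG islands usually stay free of methylation even when the gene is silent.

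The sequences below show the contrast in CpG density between stretches of 6 promoters that hold measured CpGs, and are shown because the values described below include these CpGs. They are from the NCBIM37 (mm9) genome, written 5′ to 3′ on the strand of the gene in lower case, and capitals mark the CGs with a value in both libraries. In the Dppa3 window 8 of 10 CpGs were measured, in Zfp42 6 of 9, in Tdgf1 9 of 9, in Pou5f1 4 of 4, in Sall4 19 of 21 and in Lin28a 10 of 12.
Dppa3 (end of the opening exon and start of the intron after it, chr6:122576600-122576864, plus strand): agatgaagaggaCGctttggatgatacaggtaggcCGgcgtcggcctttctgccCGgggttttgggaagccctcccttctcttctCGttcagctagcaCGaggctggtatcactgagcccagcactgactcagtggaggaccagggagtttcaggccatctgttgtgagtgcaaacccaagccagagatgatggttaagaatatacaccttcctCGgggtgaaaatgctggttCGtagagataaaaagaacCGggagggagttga
Zfp42 (upstream of the start, chr8:44392750-44392940, minus strand): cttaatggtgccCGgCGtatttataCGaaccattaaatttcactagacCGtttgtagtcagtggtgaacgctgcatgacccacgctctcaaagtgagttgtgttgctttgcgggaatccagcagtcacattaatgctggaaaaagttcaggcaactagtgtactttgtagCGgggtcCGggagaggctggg
Tdgf1 (upstream of the start, chr9:110848947-110849125, minus strand): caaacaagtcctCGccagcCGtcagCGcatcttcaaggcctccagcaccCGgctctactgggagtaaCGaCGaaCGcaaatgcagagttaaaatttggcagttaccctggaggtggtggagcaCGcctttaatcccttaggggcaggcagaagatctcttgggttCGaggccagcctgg
Pou5f1 (intron, chr17:35643516-35643603, plus strand): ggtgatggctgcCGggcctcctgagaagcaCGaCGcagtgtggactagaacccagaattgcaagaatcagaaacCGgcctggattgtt
Sall4 (coding exon and the intron after it, chr2:168592350-168592522, minus strand): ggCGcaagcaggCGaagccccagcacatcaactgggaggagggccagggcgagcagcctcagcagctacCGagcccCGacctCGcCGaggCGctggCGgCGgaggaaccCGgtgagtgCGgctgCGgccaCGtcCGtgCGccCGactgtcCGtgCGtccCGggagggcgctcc
Lin28a (coding exon, chr4:133573985-133574085, minus strand): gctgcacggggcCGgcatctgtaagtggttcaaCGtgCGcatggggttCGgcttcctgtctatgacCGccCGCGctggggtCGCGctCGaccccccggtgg

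In NCBIM37 coordinates and the GENCODE vM1 annotation, the genes on the plus strand are Pou5f1 (ENSMUSG00000024406) at chr17:35642982-35647721, Nanog (ENSMUSG00000012396) at chr6:122657507-122664651, Dppa3 (ENSMUSG00000046323) at chr6:122576428-122580290, Dppa2 (ENSMUSG00000072419) at chr16:48310590-48319836 and Dppa4 (ENSMUSG00000058550) at chr16:48283848-48294405. Those on the minus strand are Dppa5a (ENSMUSG00000060461) at chr9:78214859-78215984, Zfp42 (ENSMUSG00000051176) at chr8:44380422-44392363, Tdgf1 (ENSMUSG00000032494) at chr9:110842114-110848662, Sall4 (ENSMUSG00000027547) at chr2:168573832-168593443 and Lin28a (ENSMUSG00000050966) at chr4:133559245-133574756. Dppa3 and Nanog lie near each other on chromosome 6, and Dppa4 and Dppa2 on chromosome 16. Of the 411 CpGs, 50 also lie in another annotated gene, namely Gm14261 over the start of Sall4, Gm13061 over the start of Lin28a, and Dhdds beyond the end of Lin28a.

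Coverage of the genes was uneven. Their regions hold 2441 CpGs in the genome, of which 411 (16.8%) had a value, from 4.17% of the CpGs in Dppa5a to 21.7% in Dppa3 and Sall4. Of the 411, 194 lay in CCGG or TCGA, which MspI and TaqI recognise, enzymes that serve in some protocols of this method. The enzymes used for these libraries are not given in the sources used here. The CpGs in these sequences read 77.9% in Dnmt1+/+ and 56.7% in Dnmt1-/-. In the Lin28a promoter 7 of them averaged 48.6% and 49.3%, although the 14 remaining CpGs there averaged 5.41% and 3.62%. Values below are therefore those of the 217 CpGs outside CCGG and TCGA, called other CpGs. All 411 CpGs together had a median of 31.0 calls in the Dnmt1+/+ library and 33.0 in the Dnmt1-/- library. At those depths 0 methylated calls leave room for a level of up to 9.68% and 9.09% (taken as 3 calls), and at the lowest depth of 10 for up to 30.0%. Of the 217, 33 (15.2%) had a depth close to 2 times that of a neighbouring CpG in both libraries. The number of methylated calls in Dnmt1+/+ was then read over the other CpGs of the table with at least 40 calls and between 5 and 95% methylation there. It was even at 89.7% of 41733 CpGs with such a depth in both libraries, and at 51.9% of 74500 CpGs with it in neither library. Whether both mates of a read pair had been counted at the CpGs with about 2 times a neighbour's depth was not tested. Each test was therefore repeated with these depths and calls divided by 2, called halving below, and calls lost in this way are named. The call counts, pooled intervals and p-values printed are those of the calls as deposited unless halving is named.

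Sall4 and Lin28a hold 129 of the 217 other CpGs, and the 8 remaining genes hold 88. The promoter was taken as the sequence within 1 kb of the start of the transcript with the longest coding sequence, and the body as the rest of the gene. At least 5 other CpGs were required to compare a gene's mean. Dppa3, Zfp42, Tdgf1, Sall4 and Lin28a met this in the promoter, whereas Pou5f1 had 4, Dppa4 had 3, Dppa2 had 2, and Nanog and Dppa5a had 0. In the body Pou5f1, Dppa3, Zfp42, Sall4 and Lin28a met it, whereas Nanog had 2, Dppa4 and Tdgf1 had 1, and Dppa2 and Dppa5a had 0. The promoters of Nanog and Dppa5a thus had no value here.

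Over the whole regions, the mean of the 217 other CpGs was 53.2% in Dnmt1+/+ and 18.4% in the Dnmt1-/- library. A two-sided Fisher's exact test of the calls at each CpG, adjusted by Benjamini and Hochberg's method over every CpG in the table, called 114 of them (52.5%) lower in the Dnmt1-/- library, against a background of 44.2% of all other CpGs. It called 6 higher (2.76%, background 0.635%), all of them in Sall4. Without Sall4 and Lin28a, 67 of 88 (76.1%) were lower and 0 higher, and each of the 88 had a lower percentage in Dnmt1-/-. Halving left 112 of the 114 called lower and 3 of the 6 called higher. Of the 88 CpGs at 80% or more in Dnmt1+/+ over all 10 genes, 77 (87.5%) were called lower. That is close to the background of 88.2% of all other CpGs at that level. In Dnmt1-/-, 6 of the 217 other CpGs were at 80% or more. Counts called lower in single genes below are to be read beside these shares of 44.2% and 88.2%.

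The genes fell into 2 sets by the level of their promoters in Dnmt1+/+. The promoters of Zfp42, Tdgf1 and Dppa3 averaged between 80.2% and 95.5% in Dnmt1+/+ and between 10.9% and 57.1% in Dnmt1-/-. Those of Sall4 and Lin28a averaged 11.3% and 5.41% in Dnmt1+/+ and 9.90% and 3.62% in Dnmt1-/-. Pou5f1, Dppa2 and Dppa4 had too few CpGs for a comparison of means, and their CpGs lay at 65.9% to 100% in Dnmt1+/+ and at 2.04% to 55.7% in Dnmt1-/-. Of the 5 promoters compared, 3 were thus lower by 25 percentage points or more, against 7.26% of 12830 promoters with at least 5 other CpGs, and 0 were higher by as much, against 0.203%.

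**Figure D1:**
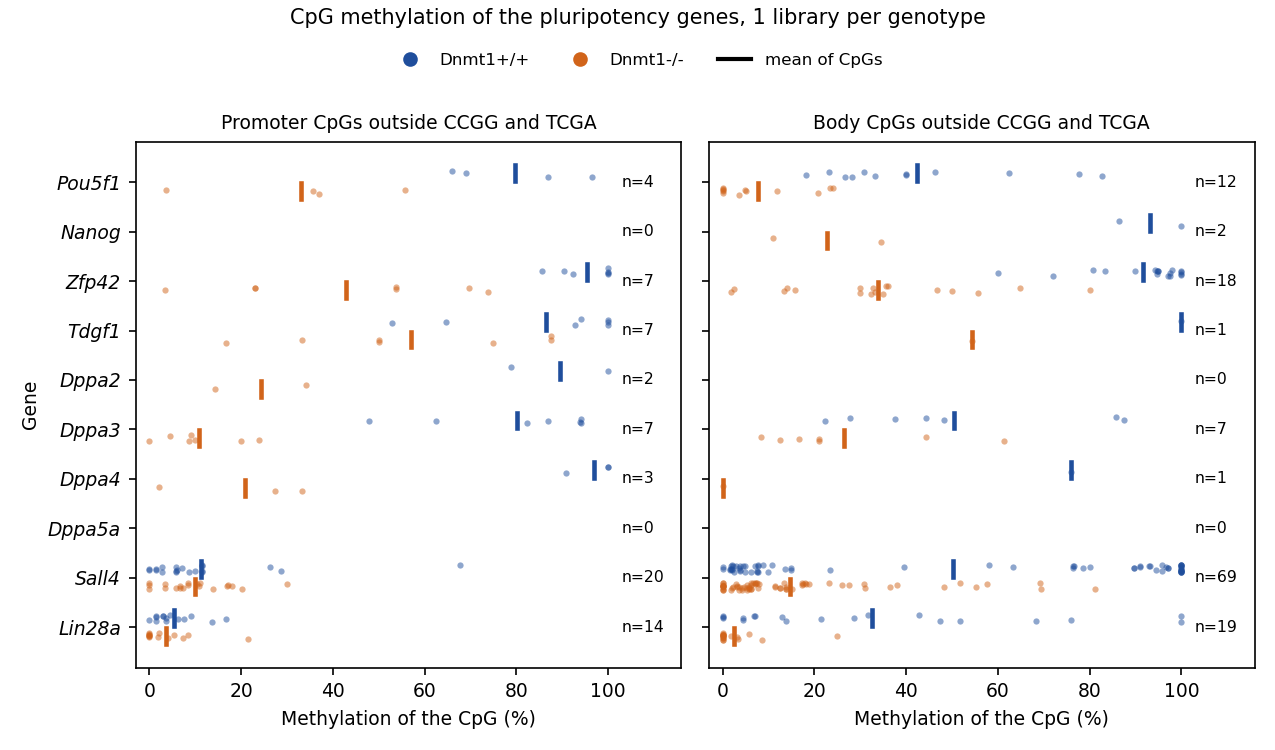
Methylation (%) of each other CpG in the promoter (left) and body (right) of the 10 genes, in Dnmt1+/+ (blue) and Dnmt1-/- (orange), with 1 library per genotype. Points are CpGs, vertical bars their mean and n their number. The promoter CpGs of Sall4 and Lin28a lie mostly at 20% or less in both libraries, whereas those of Zfp42, Dppa3, Pou5f1, Dppa2 and Dppa4 lie high in Dnmt1+/+ and lower in Dnmt1-/-, and Tdgf1 keeps CpGs at up to 87.5%.

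Dppa3 (Stella) encodes a maternal factor that protects the genome of the zygote from loss of methylation, and its promoter lost the most among the 5 compared. Its 7 other CpGs averaged 80.2% in Dnmt1+/+ (range 47.8 to 94.1%) and 10.9% in Dnmt1-/- (range 0 to 24.0%). Pooled, 147 of 177 calls were methylated in Dnmt1+/+ (95% Wilson interval 76.8 to 87.9%, too narrow wherever neighbouring CpGs share reads, here and below) and 34 of 233 in Dnmt1-/- (10.6 to 19.7%). The ranges of the 7 CpGs did not overlap between libraries, and each of the 7 was called lower. Of the 7, 5 were at 80% or more in Dnmt1+/+, a level at which 88.2% of all other CpGs were called lower. The CpG 184 bp past the start in the coding part of the opening exon, fell from 93.8% of 64 calls to 24.0% of 100 calls (adjusted p = 2.46e-18, Fisher's exact test, and 2.50e-09 after halving). A CpG at 270 bp, in the intron, fell from 62.5% of 16 calls to 0 of 11, which allows up to 3 of 11 calls at that depth.

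In the body of Dppa3, the 7 CpGs between 2247 and 2454 bp averaged 50.5% in Dnmt1+/+ (range 22.2 to 87.5%) and 26.4% in Dnmt1-/- (range 8.33 to 61.3%), a difference of -24.1 points, just short of the 25 points taken as a change. Of these, 4 were called lower, and the one at 2262 bp, from 37.5% to 21.0%, lost its call on halving (adjusted p = 0.0161 and 0.134, Fisher's exact test). The CpG at 2256 bp in the coding exon kept the highest level in Dnmt1-/-, 61.3% of 124 calls, from 87.5% of 112 calls in Dnmt1+/+ (adjusted p = 2.14e-05, Fisher's exact test). The promoter mean was thus above the body mean in Dnmt1+/+ and below it in Dnmt1-/-, but the ranges of the CpGs of promoter and body overlapped in both libraries, and the difference was not tested.

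Zfp42 (Rex1), a widely used marker of undifferentiated stem cells, had the most methylated promoter among the 5 compared in Dnmt1+/+. Its 7 CpGs averaged 95.5% in Dnmt1+/+ (range 85.7 to 100%) and 43.0% in Dnmt1-/- (range 3.33 to 73.9%). Pooled calls were 137 of 142 methylated in Dnmt1+/+ (92.0 to 98.5%) and 54 of 128 in Dnmt1-/- (34.0 to 50.8%). The loss differed along the promoter. The CpG at -876 bp went from 31 of 31 methylated calls (100%) to 3.33% of 30 calls (adjusted p = 4.63e-15, Fisher's exact test). In the window printed above, the neighbouring CpGs at -561, -551 and -528 bp were all at 100% of 21 calls in Dnmt1+/+ and at 53.8%, 53.8% and 23.1% of 13 calls in Dnmt1-/-. Past the start, in the intron, the CpGs at 781 and 790 bp read 92.3% and 85.7% in Dnmt1+/+ and 73.9% and 69.6% in Dnmt1-/-. The difference at these intronic CpGs did not pass the test with 13 to 23 calls each (adjusted p = 0.579 and 0.639, Fisher's exact test). The larger falls at -528 and -406 bp, with 21 and 13 calls, passed it.

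Along the body of Zfp42, 18 other CpGs averaged 91.7% in Dnmt1+/+ (range 60.0 to 100%) and 33.9% in Dnmt1-/- (range 1.89 to 80.0%), and 17 were called lower. Of the 18, 16 were at 80% or more in Dnmt1+/+, a level at which 88.2% of all other CpGs were called lower. The 13 CpGs of the coding exon, at 10869 to 11390 bp, averaged 90.5% and 36.5%. Next to each other there, the CpG at 10885 bp fell from 60.0% of 35 calls to 1.89% of 53, while the CpG at 10930 bp read 94.7% of 19 calls and 80.0% of 10 (adjusted p = 0.427, Fisher's exact test). Promoter and body of Zfp42 were thus both highly methylated in Dnmt1+/+ and both lower in Dnmt1-/-.

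The promoter of Tdgf1 kept the highest mean in Dnmt1-/- of the 5 compared. Its 7 CpGs, all within the printed window between -450 and -339 bp, averaged 86.4% in Dnmt1+/+ (range 52.9 to 100%) and 57.1% in Dnmt1-/- (range 16.7 to 87.5%), a difference of -29.2 points. Pooled, 94 of 110 calls were methylated in Dnmt1+/+ (77.7 to 90.8%) and 67 of 120 in Dnmt1-/- (46.9 to 64.4%). The 3 CpGs farthest upstream, at -450, -443 and -437 bp, read 100%, 100% and 92.9% in Dnmt1+/+ and 75.0%, 87.5% and 87.5% in Dnmt1-/-. The pair nearest the start, at -388 and -339 bp, fell from 100% and 94.1% to 33.3% and 16.7% (adjusted p = 1.34e-04 and 2.23e-05, Fisher's exact test). Those were the 2 calls in this promoter, and with 14 to 18 calls per CpG the 5 others did not pass. The 1 body CpG, in an intron 4844 bp past the start, fell from 53 of 53 methylated calls to 54.3% of 70 (adjusted p = 4.85e-09, Fisher's exact test).

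Among all other CpGs 44.2% were called lower, and 88.2% of those at 80% or more in Dnmt1+/+. Pou5f1 had 4 promoter CpGs, 2 of them at that level, and all 4 were called lower. They averaged 79.6% in Dnmt1+/+ and 33.0% in Dnmt1-/-, and pooled calls were 257 of 331 methylated (72.9 to 81.8%) and 124 of 300 (35.9 to 47.0%), most of them at the CpGs at 564 and 567 bp, which had about 2 times a neighbour's depth. In the 5′ UTR, 44 bp past the start, methylation fell from 69.0% of 29 calls to 3.57% of 28, and in the coding part of the same exon, at 89 bp, from 96.6% of 29 to 35.7% of 28. In the printed intron window, the adjacent CpGs at 564 and 567 bp fell from 65.9% and 87.0% to 36.9% and 55.7%. The 12 body CpGs averaged 42.4% (range 18.2 to 82.8%) and 7.80% in Dnmt1-/- (range 0 to 24.1%), and 8 were called lower. Within the intron between 1501 and 3000 bp, 5 CpGs averaged 31.6% in Dnmt1+/+ and 0.714% in Dnmt1-/-.

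**Figure D2:**
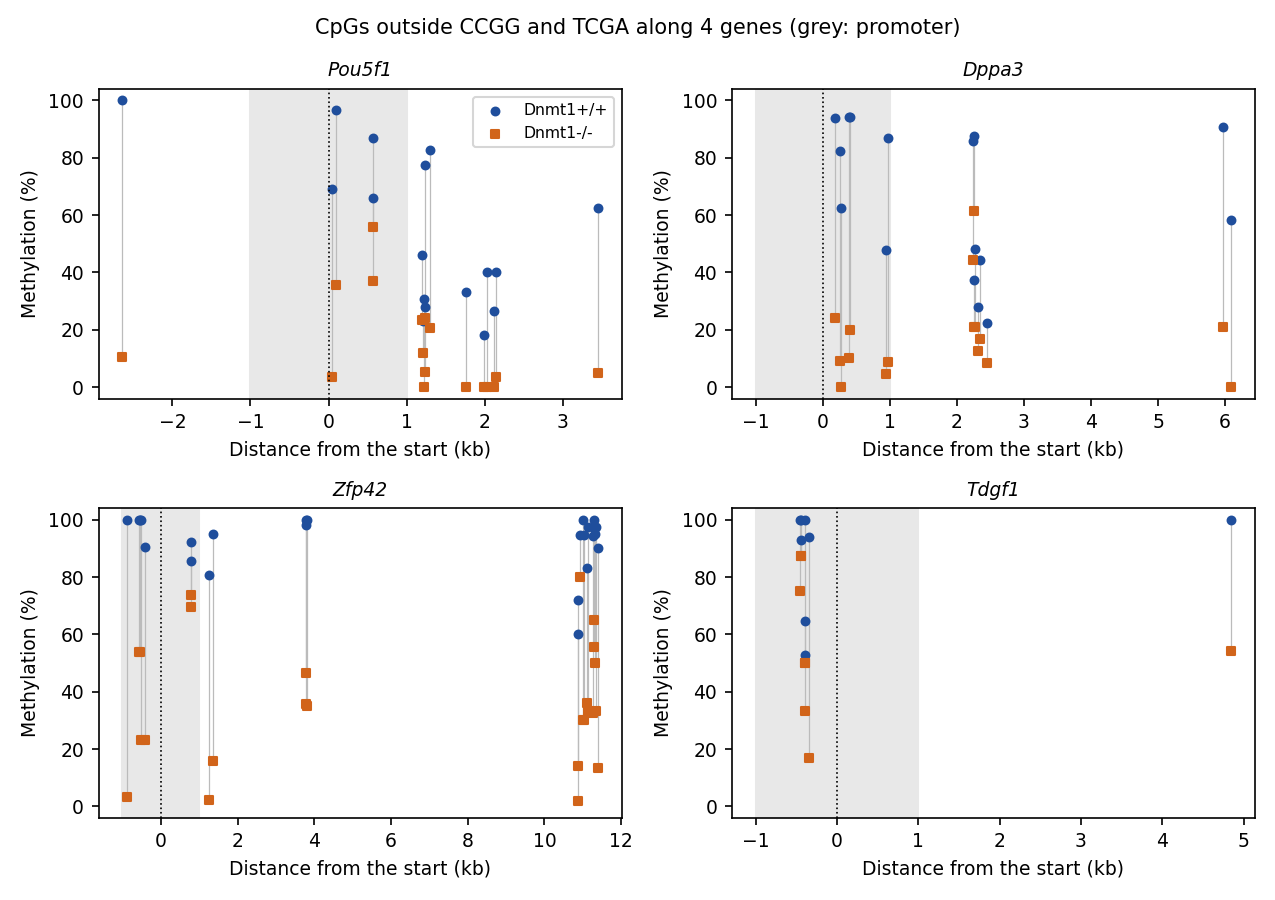
Methylation (%) of other CpGs against distance from the start (kb) in Pou5f1, Dppa3, Zfp42 and Tdgf1, in Dnmt1+/+ (blue circles) and Dnmt1-/- (orange squares), with a grey line joining both values of a CpG and grey shading for the promoter. Every CpG of these 4 genes is lower in Dnmt1-/-, by amounts that differ between neighbouring CpGs, and the highest values in Dnmt1-/- are the 87.5% of upstream CpGs of Tdgf1 and the 80.0% of the Zfp42 CpG at 10930 bp.

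Dppa2 and Dppa4, neighbouring genes on chromosome 16 whose proteins bind DNA and chromatin, had few CpGs, and each of their promoter CpGs was called lower. In Dppa2 1 of 2 and in Dppa4 3 of 3 were at 80% or more in Dnmt1+/+, where 88.2% of all other CpGs were called lower. In Dppa2 the CpGs at -668 and -369 bp fell from 78.9% and 100% to 14.3% and 34.2%. In Dppa4 the CpGs at -225, -33 and 381 bp fell from 100%, 100% and 90.9% to 33.3%, 27.3% and 2.04%. The last of these, in an intron, had 44 and 49 calls (adjusted p = 8.28e-19, Fisher's exact test). The 1 body CpG of Dppa4, at 3651 bp, fell from 76.0% of 25 calls to 0 of 16. Downstream of Dppa2, 4 CpGs averaged 72.8% and 34.8%, of which 2 were called lower.

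Nanog and Dppa5a could be described only outside their promoters. The 2 body CpGs of Nanog, in an intron at 3318 and 3352 bp, fell from 86.4% and 100% to 10.9% and 34.5%, and 3 downstream CpGs averaged 89.1% and 39.0%. Upstream, the clustered CpGs at -2249, -2247 and -2240 bp read 100%, 95% and 95% in Dnmt1+/+ and 94.7%, 78.9% and 84.2% in Dnmt1-/-, with 20 and 19 calls each, and did not pass the test. The CpG at -2132 bp fell from 80.0% of 10 calls to 19.0% of 21 (adjusted p = 0.00588, Fisher's exact test). The 3 clustered CpGs had equal depths and may share reads, so they may not be separate readings, and each read lower in Dnmt1-/-. Higher and lower percentages in Dnmt1-/- thus lay close together upstream of Nanog, on few calls. Dppa5a, which encodes a KH-domain RNA-binding protein, had 1 other CpG, 2410 bp from its start and downstream of the gene, with 12 of 12 methylated calls in Dnmt1+/+ and 0 of 23 in Dnmt1-/-.

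In Sall4 and Lin28a, most CpGs around the start were low in both libraries, and higher levels lay farther from it. The promoter of Lin28a had 14 CpGs at 5.41% in Dnmt1+/+ (range 0 to 16.7%) and 3.62% in Dnmt1-/- (range 0 to 21.4%). Pooled calls were 57 of 1132 methylated (3.91 to 6.47%) and 37 of 985 (2.74 to 5.13%), and the intervals overlapped. Fisher's exact test called 0 of the 14 after adjustment, and 1 had an unadjusted p under 0.05. In the body, the CpGs within 3 kb of the start were also low, at 7.33% between 1001 and 1500 bp (5 CpGs) and 3.26% between 1501 and 3000 bp (4 CpGs). Beyond that, 3 intronic CpGs between 3001 and 6000 bp averaged 31.0% in Dnmt1+/+ and 0% in Dnmt1-/-. The 3 CpGs of the 3′ UTR averaged 92.0% in Dnmt1+/+ (75.9 to 100%) and 13.1% in Dnmt1-/- (5.71 to 25%), and all 3 were called lower. Over the whole body, 19 CpGs averaged 32.5% and 2.50%, with 8 called lower. Downstream, 3 CpGs that lie within the neighbouring gene Dhdds read 1.01% and 1.52%.

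Sall4 had the most CpGs of the 10 genes. Its 20 promoter CpGs averaged 11.3% in Dnmt1+/+ (range 0 to 67.7%) and 9.90% in Dnmt1-/- (range 0 to 30.0%). Pooled calls were 165 of 1653 methylated (8.63 to 11.5%) and 195 of 1803 (9.46 to 12.3%), which is the opposite order to that of the means, with overlapping intervals. The promoter difference was -1.39 points and became 0.719 points when the promoter was widened to 2 kb either side, and -8.82 points from the most 5′ annotated start, so its direction depended on the setting. The 2 CpGs at -455 and -438 bp accounted for the lower calls, falling from 26.2% and 67.7% to 5.71% and 17.1%, and the one at -455 bp lost its call on halving (adjusted p = 0.00411 and 0.0766, Fisher's exact test). Farther upstream, 3 CpGs at -2118, -2108 and -2065 bp fell from 97.8%, 54.3% and 56.7% to 15.6%, 15.0% and 23.4%, and all 3 were called lower. In the printed window past the start, 17 CpGs averaged 7.40% in Dnmt1+/+ and 9.11% in Dnmt1-/-.

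In the body of Sall4, CpGs farther from the start were more methylated in Dnmt1+/+. Mean methylation in Dnmt1+/+ was 4.89% between 1001 and 1500 bp (25 CpGs), 26.7% between 1501 and 3000 bp (11 CpGs) and 94.7% beyond 6000 bp (31 CpGs). In Dnmt1-/- the same stretches averaged 8%, 2.98% and 24.8%. All 31 CpGs of the far stretch had a lower percentage in Dnmt1-/- and 29 were called lower, among them a CpG at 16499 bp that fell from 93.2% of 74 calls to 2.17% of 92 (adjusted p = 1.87e-35, Fisher's exact test). Neighbours there kept different levels: at 12153, 12215 and 12218 bp in the coding exon, all at 100% of 27 calls in Dnmt1+/+, Dnmt1-/- read 81.2%, 6.25% and 18.8% of 16 calls.

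The 6 CpGs called higher in Dnmt1-/- all lay within 1.5 kb of the start of Sall4, in the stretch of low methylation. At -99 bp methylation rose from 6.12% of 98 calls to 20.3% of 69, at 310 bp from 1.43% of 140 to 8.43% of 166, and at 318 bp from 1.44% of 139 to 11.0% of 164. At 1323 bp it rose from 0% to 5.31%, at 1410 bp from 13.6% to 26.0% and at 1419 bp from 14.9% to 36.4%, the largest rise (adjusted p = 1.55e-04, Fisher's exact test, and 0.0103 after halving). Between 1001 and 1500 bp, 19 of 25 CpGs had a higher percentage in Dnmt1-/-. Of these 6, 4 had about 2 times a neighbour's depth, and after halving 3 of the 6 remained called higher, those at 310, 318 and 1419 bp. With the calls as deposited, 2 of the 6, at 318 and 1419 bp, passed an adjusted p under 0.01, of which the one at 1419 bp did not pass it after halving. Of the 6, 0 remained called higher after thinning to 10 calls per CpG or with a minimum difference of 25 points. The promoter CpGs called higher also lie within Gm14261, an annotated transcript on the opposite strand.

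**Figure D3:**
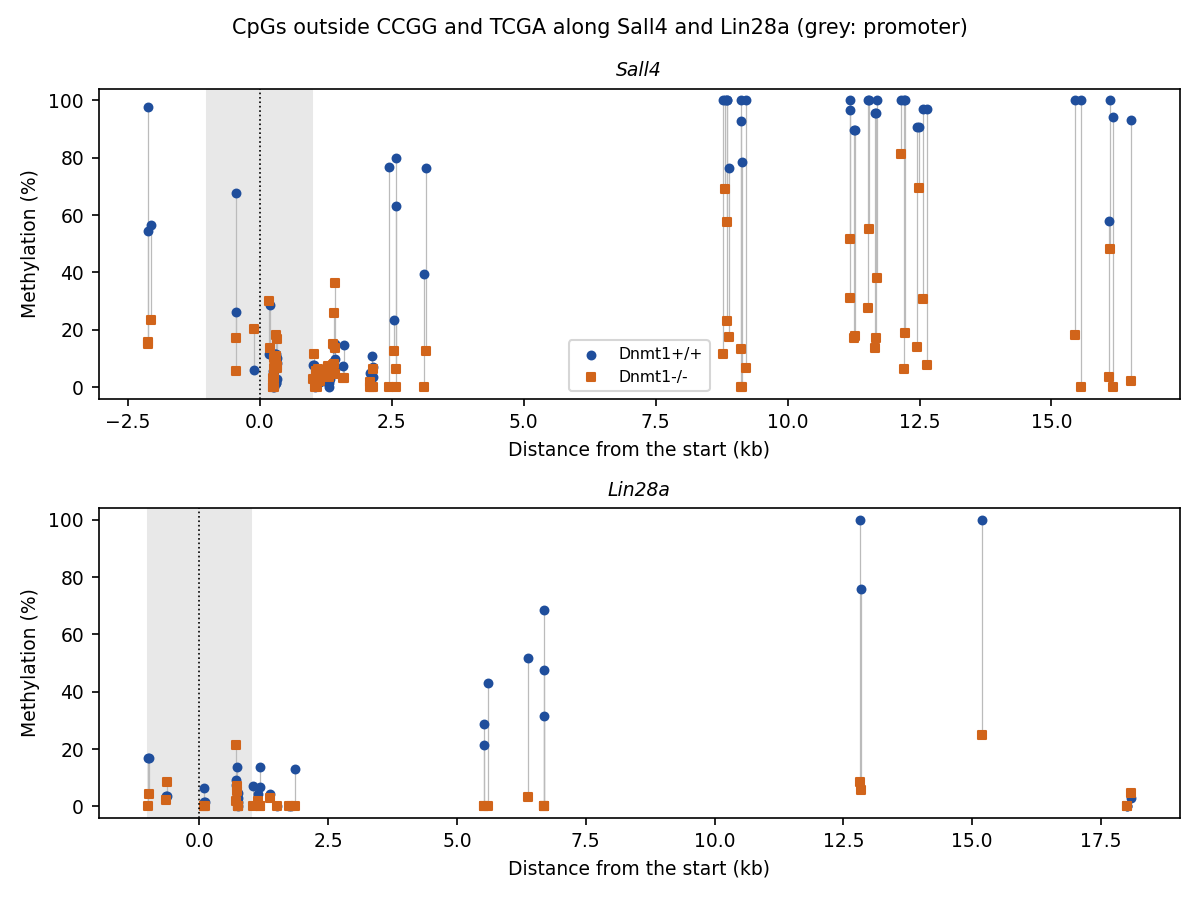
Methylation (%) of other CpGs against distance from the start (kb) in Sall4 (top) and Lin28a (bottom), in Dnmt1+/+ (blue circles) and Dnmt1-/- (orange squares), with grey lines joining both values of a CpG and grey shading for the promoter. Near the start most values lie close to 0 in both libraries, with Dnmt1-/- higher at 6 called CpGs of Sall4, and further into each gene Dnmt1+/+ is higher, 94.7% on average beyond 6 kb in Sall4, while Dnmt1-/- stays lower.

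Promoter was then set against body. In Dnmt1+/+ the body mean was above the promoter mean in 95.5% of 8739 genes that had at least 5 other CpGs in both. Of the 4 members with both, Sall4 (50.3% against 11.3%) and Lin28a (32.5% against 5.41%) had the body higher. Dppa3 (50.5% against 80.2%) and Zfp42 (91.7% against 95.5%) had the promoter higher. In Zfp42 the pooled intervals of body and promoter overlapped (89.2 to 93.2% and 92.0 to 98.5%). With CpGs in CCGG and TCGA included, its means were 93.6% and 93.9%. In Dnmt1-/- the bodies of Pou5f1, Zfp42, Sall4 and Lin28a had fallen by at least 25 points, 4 of the 5 compared, which is close to the background of 85.3% of 11748 bodies, and 0 were higher, against 0.128%. Values near that limit crossed it under other settings: the Lin28a body difference of -30.0 points was -21.4 with promoters of 500 bp either side and -21.5 with CpGs in CCGG and TCGA included, the Dppa3 body difference was -32.2 with promoters of 500 bp, and the Tdgf1 promoter difference was -23.9 with CpGs in CCGG and TCGA included. Over all members, the mean of 64 promoter CpGs was 45.7% in Dnmt1+/+ and 19.8% in Dnmt1-/-, and 129 body CpGs averaged 54.0% and 15.9%. These means rest on how many CpGs Sall4 and Lin28a contribute. Without them, 30 promoter CpGs averaged 87.4% and 34.0%, and 41 body CpGs averaged 70.1% and 24.1%. The promoter mean then lay above the body mean in both libraries, whereas with all members it did so in Dnmt1-/- only. With calls pooled over all members, Dnmt1-/- had the opposite order, 14.5% and 16.7%. The pools differ in genes: Tdgf1 gave 7 promoter CpGs and 1 body CpG, Pou5f1 4 and 12. Of the genes left with both means, in Dnmt1-/- Zfp42 had the promoter higher (43.0% against 33.9%) and Dppa3 the body (26.4% against 10.9%).

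Among the 5 promoters compared, the order of means in Dnmt1+/+ was Zfp42, Tdgf1, Dppa3, Sall4 and Lin28a. In Dnmt1-/- it was Tdgf1, Zfp42, Dppa3, Sall4 and Lin28a. The ranges of the CpGs overlapped between each gene and the next in both orders, and the differences between neighbours were not tested. The 507 promoters of all genes that were at 80% or more in Dnmt1+/+ had a median of 32.0% in Dnmt1-/- (quartiles 15.8 and 46.5%). Against these, Dppa3 at 10.9% lay below the lower quartile, Zfp42 at 43.0% between the quartiles and Tdgf1 at 57.1% above the upper quartile.

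The 2 kb around the start held 94 CpGs in Sall4 and 79 in Lin28a, more than in any other member (71 in Tdgf1, 50 in Zfp42, 44 in Dppa3 and in Pou5f1, 41 in Dppa5a, 33 in Nanog, 27 in Dppa4 and 26 in Dppa2), against a median of 61.0 over 22349 promoters. The ratio of observed to expected CpG, which corrects for base composition, gave another order. The ratio of observed to expected CpG in the 2 kb around the start was 0.264 in Pou5f1, 0.275 in Dppa4, 0.289 in Dppa2, 0.304 in Nanog, 0.324 in Dppa5a and 0.416 in Dppa3, all below the median of 0.466. Lin28a, whose promoter was almost unmethylated, was also below it at 0.448. Zfp42 at 0.503, Tdgf1 at 0.642 and Sall4 at 0.674 were above it, and Tdgf1 and Sall4 had similar ratios with 86.4% and 11.3% methylation in Dnmt1+/+. The octamer ATGCAAAT, the recognition sequence of octamer-binding proteins such as the product of Pou5f1, was searched on both strands and occurred in 1 member, Zfp42, at -186 bp, and in 9.07% of all promoters.

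**Figure D4:**
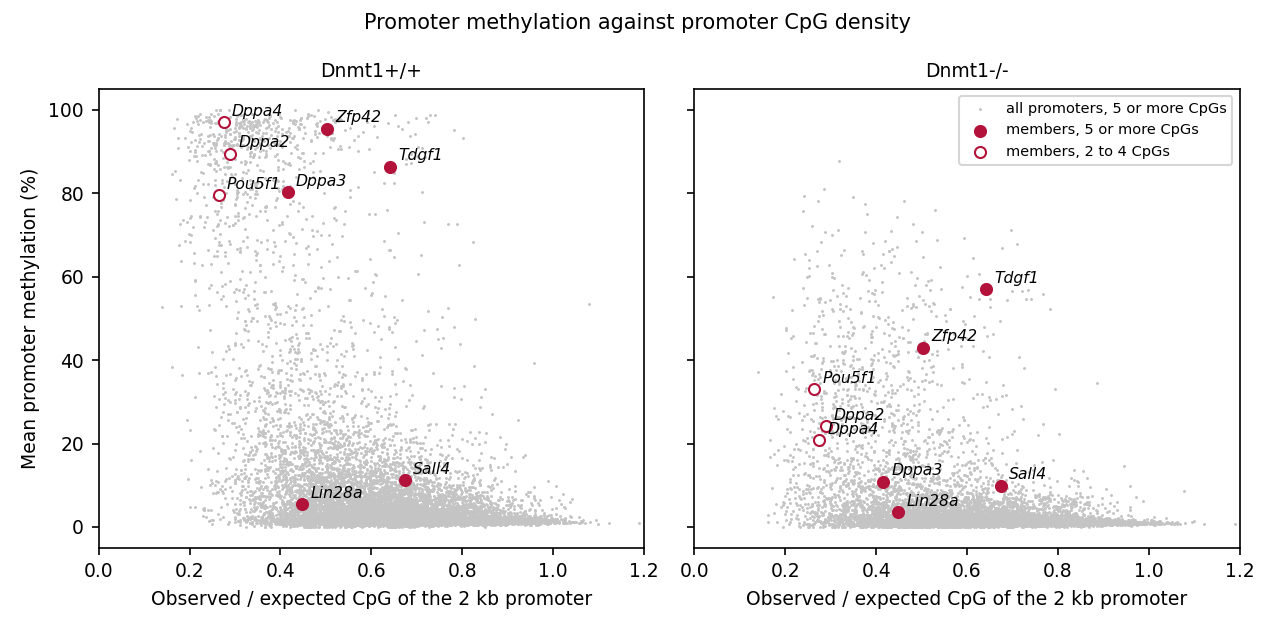
Mean promoter methylation (%) against the ratio of observed to expected CpG in Dnmt1+/+ (left) and Dnmt1-/- (right), with all promoters of at least 5 other CpGs in grey, members of at least 5 as filled circles and members of 2 to 4 as open circles. Tdgf1 and Sall4 have similar ratios (0.642 and 0.674) but sit at 86.4% and 11.3% in Dnmt1+/+, and in Dnmt1-/- Tdgf1 is the highest member at 57.1%.

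Of 20 further pluripotency genes, 14 had at least 5 other CpGs in the promoter and 1 of these, Gdf3, was lower by 25 points or more. Gdf3, a growth factor gene of the TGF-beta family next to Dppa3 on chromosome 6, read 74.2% in Dnmt1+/+ and 7.24% in Dnmt1-/- over 7 CpGs. The others were low in both libraries, such as Foxd3 (13.6% and 6.03%) and Utf1 (13.5% and 1.14%), and the median of the 14 was 6.17% in Dnmt1+/+ and 1.29% in Dnmt1-/-, beside 2.67% and 1.21% over all promoters. Germline genes were chosen for promoters methylated in somatic cells, so their high Dnmt1+/+ values follow from the choice. All 8 of 12 that could be compared were lower by 25 points or more, with medians of 92.0% and 27.9%. Of these 8, 7 were at 80% or more in Dnmt1+/+, and of all 507 promoters at that level 0 were not lower in Dnmt1-/-. Asz1, Tex19.1 and Mael were the highest in Dnmt1+/+ at 97.3%, 97.1% and 96.1%, and Tex19.1, Mael and Mov10l1 differed most, by -89.7, -75.0 and -74.8 points. Of 7 genes expressed in most cells, 0 promoters differed by 25 points, with medians of 1.66% and 0.973%. B2m was the highest at 7.22% and 2.25%, then Gapdh at 2.36% and 0.531% and Actb at 2.01% and 0.970%, and the third largest difference after B2m and Gapdh was in Tbp, at 1.66% and 0.431%.

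**Figure D5:**
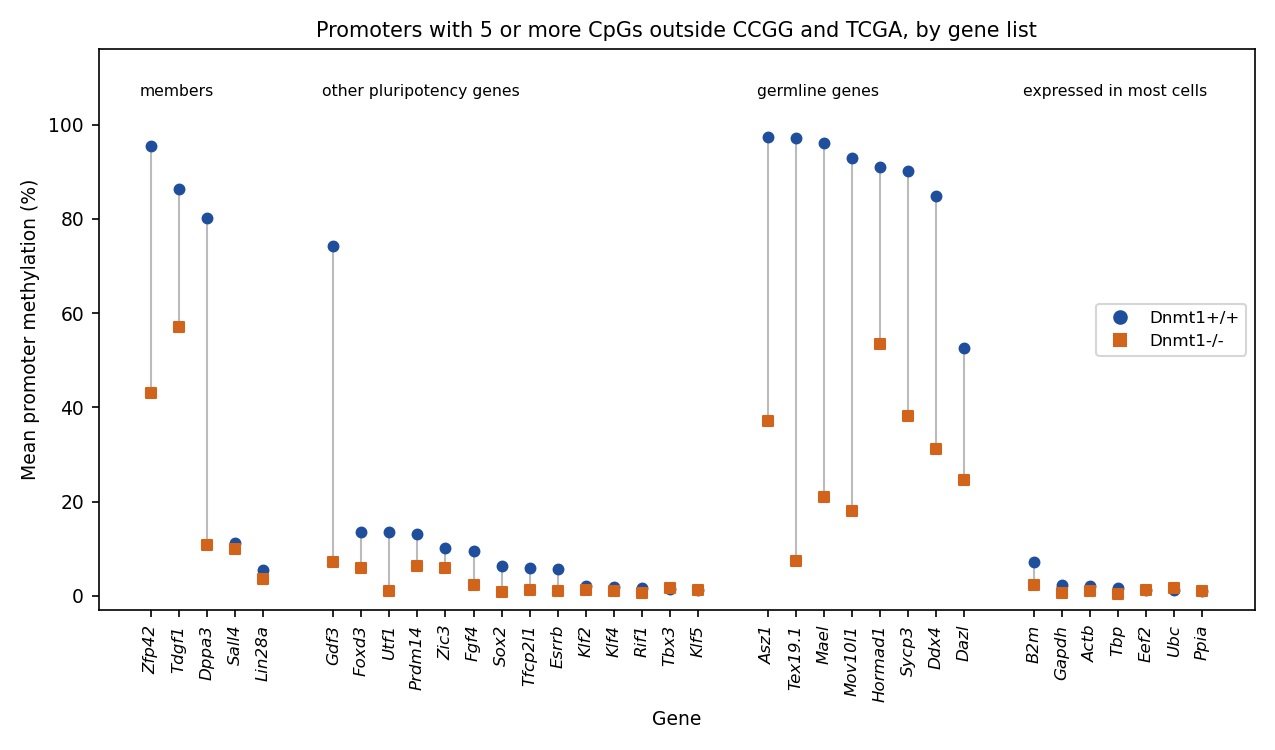
Mean promoter methylation (%) in Dnmt1+/+ (blue circles) and Dnmt1-/- (orange squares) for each gene with at least 5 other CpGs in the promoter, by list, with a grey line joining both values of a gene. Zfp42, Tdgf1, Dppa3 and Gdf3 lie between 74.2% and 95.5% in Dnmt1+/+, beside 84.8% to 97.3% for 7 germline genes and 52.6% for Dazl, and Sall4, Lin28a and 13 further pluripotency genes lie at 13.6% or less, near the genes expressed in most cells.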

How the data were processed

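Methylation was measured by reduced-representation bisulfite sequencing in MEFs of 2 genotypes, 1 library each, and the labels' genotype gave the groups. A sequencing provider processed and mapped the reads. The submitters' processing notes name Bismark and mm9, and the conversion rate is not given in the sources used here. The authors' depth is the count of methylation calls per CpG after a minimum of 10 in both libraries, and their percent value is the share of methylated calls. Percent multiplied by depth was within 0.001 of a whole number at 100% of CpGs and gave the methylated calls. The libraries held 74636195 (Dnmt1+/+) and 78401157 (Dnmt1-/-) calls, with median depths of 29 and 30. All 1790826 positions lay on a CG of NCBIM37, and coordinates are 1-based.

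Genes and transcripts were from GENCODE vM1. A promoter was 1 kb either side of the start of the protein-coding transcript with the longest coding sequence, the body ran from there to the gene's end, and flanks reached 3 kb. Means weigh each CpG equally and were compared where at least 5 CpGs outside CCGG and TCGA were present, with 25 points taken as a change. For single CpGs, Fisher's exact test was two-sided, adjusted by the Benjamini-Hochberg method over all CpGs (threshold 0.05) and checked on simulated data. No test was made over CpGs of a gene, which share reads. Intervals are 95% Wilson intervals on pooled calls, too narrow where neighbouring CpGs share reads, and cover counting error only, since PCR copies cannot be told from separate molecules here.

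The members and lists were chosen with earlier results of these data known. All 10 members are named. Of each further list, the 3 highest in Dnmt1+/+, the 3 largest differences and any promoter that rose by 25 points are named. Tfcp2l1 was annotated as Tcfcp2l1. A further listed gene was left out of every count and is not reported here. The alternatives changed the depth minimum, CpG set, promoter width, start, thresholds, thinning and pooling. Halving the calls of CpGs with about 2 times a neighbour's depth, leaving out Sall4 and Lin28a, and leaving out CpGs in another gene were added after seeing the data. Scripts ran under python 3.11.15 with scipy 1.17.1, numpy 2.4.6, numba 0.67.0, pandas 2.3.3 and matplotlib 3.10.9. Histone and transcript data were not used here.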

Additional observations from a re-analysis of the deposited data

How the results depend on the processing

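The count of 114 CpGs called lower was 187 with CpGs in CCGG and TCGA included, 73 at a depth of at least 20, 62 after thinning to 10 calls and 67 without Sall4 and Lin28a. The 6 called higher became 2 at an adjusted p under 0.01, 3 with doubled calls halved, and 0 with a minimum difference of 25 points, after thinning to 10 calls, or without Sall4 and Lin28a. The promoter means of 45.7% in Dnmt1+/+ and 19.8% in Dnmt1-/- were 58.8% and 36.2% with all measured CpGs, 26.1% and 10.5% at a depth of at least 20, 55.8% and 22.7% from the most 5′ start, 33.6% and 14.4% with 2 kb either side, 87.4% and 34.0% without Sall4 and Lin28a, 70.1% and 27.8% without CpGs in another gene, 26.4% and 14.5% with calls pooled, and 68.1% and 25.3% as the mean of gene means. The body means of 54.0% and 15.9% were 64.7% and 34.7% with all measured CpGs, 55.2% and 19.3% at a depth of at least 20, 75.3% and 20.9% with 2 kb promoters, 70.1% and 24.1% without Sall4 and Lin28a, and 67.1% and 20.3% as the mean of gene means. In Dnmt1+/+ alone, the body mean also moved, to 49.6% from the most 5′ start, 52.2% with 500 bp promoters and 40.9% with calls pooled. The 5 promoters compared were 3 with 500 bp either side and 8 with all measured CpGs. The 3 promoters lower by 25 points were 5 with a minimum of 3 other CpGs and 5 with all measured CpGs. For single genes, 29 of 40 differences under an alternative stayed within the counting error of the reported value, 10 moved beyond it in the same direction, and 1 reversed, the Sall4 promoter at 0.719 points with 2 kb either side. The causes were not tested, other than that a setting changes which CpGs enter a mean. No paired analysis was possible because there was 1 library per genotype. Depth limited single CpGs: at 10 calls, 0 methylated calls allow up to 30.0%.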
